A study of Mus musculus with 22 samples.

Results

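Cadherins and protocadherins are the genes described here. They were taken as every gene of the array's annotation whose symbol is Cdh followed by a number or begins with Pcdh, which gave 56 of the 18194 genes measured. The data are the array profiles of 22 single cells from the developing mouse retina, each amplified by 35 cycles of PCR and hybridised to its own Affymetrix mouse expression array. The authors assigned each cell a type after profiling. There were 13 retinal ganglion cells (3 from E12.5, 1 from E13.5, 2 from E14.5, 3 from E15.5 and 4 from P0), 6 amacrine cells (1 from E16.5 and 5 from P0) and 3 photoreceptors (2 from P0 and 1 adult rod). The strain was given as CD1 for 9 cells and was not given for the other 13, and no cell carried a named mutation or treatment. The labels did not say which cells shared an animal.

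Cadherins are calcium-dependent adhesion molecules of the cell surface. Classical cadherins bind partners of the same kind on neighbouring cells and are tied to actin through the catenins, and the type II members mark subsets of retinal neurons and the layers that these wire to. Protocadherins are the largest branch of the family, and the clustered genes Pcdha, Pcdhb and Pcdhg lie in tandem arrays from which single neurons choose different promoters, giving each cell its own set of surface proteins.

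A gene was called held by a cell where its signal reached 1000 (9.97 on the log2 scale), with arrays scaled to a 2% trimmed mean of 500 and signals below 200 raised to 200 (7.64 on the log2 scale), so a value of 7.64 is a bound and not a measured level. In single cells amplified by PCR, a gene at this floor in a cell that does not transcribe it and a transcript lost before amplification cannot be told apart. Each gene was read from a single probe set, the one that averaged highest over the 22 cells. In 6 cases a gene at less than 1000 on that probe set reached 1000 in a cell on another of its probe sets: Cdh2 in P0 photoreceptor E1 (13.59), Cdh4 in P0 photoreceptor H1 (10.48), Cdh6 in the adult rod (10.31), Pcdh7 in P0 amacrine cell F6 (10.21), Pcdh9 in the E12.5 ganglion cell F3 (10.78) and Pcdh19 in the E14.5 ganglion cell E1 (11.59). Statements on which cells held a gene refer to the single probe set unless another is named. Levels are compared between cells for the same probe set and never between genes.

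The labelled types carried their own markers. Of 9 ganglion markers, 6 to 9 were held by each ganglion cell, 0 to 4 by amacrine cells and 1 by photoreceptors. Of 9 amacrine markers, 3 to 6 were held by each amacrine cell, 1 to 3 by photoreceptors and 1 or 2 by ganglion cells. Of 8 photoreceptor markers, 7 or 8 were held by each photoreceptor, with at most 1 in a ganglion cell and 0 in an amacrine cell. Both E14.5 ganglion cells also held progenitor markers (3 and 4 of 5) and 4 of 9 vascular, blood and lens markers, and the 3 E15.5 ganglion cells held 2 of the latter. P0 photoreceptor H1 held 2 of 5 glial markers (Rlbp1 and Glul) and 2 progenitor markers (Ccnd1 and Sox2), and P0 amacrine cell D1 held 2 glial markers (Glul and Slc1a3) and 2 progenitor markers (Ccnd1 and Top2a). P0 amacrine cells F6 and B1 held Ccnd1 and Sox2. The part of these transcripts in the results was not tested. Genes held per cell ranged from 1518 to 4352. On the E16.5 amacrine and adult rod arrays, dim probe sets lay higher than on the others, with 57.9% and 55.0% of genes above the floor against 20.6% to 37.2% in the other 20 cells. Of the 56 cadherin genes, 35.7% and 50.0% lay above the floor on these arrays, against 5.4% to 23.2% on the others.

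Most cadherin genes were held by few cells or none. No cell held 27 of the 56 genes (48.2%), against 39.6% of all genes measured. A further 16 were held by 1 cell (28.6%, against 13.6% of all genes) and 5 by 2 cells (8.9%, against 7.3%). The remaining 8 genes, 14.3% of the family, were held by 3 or more cells, against 39.5% of all genes. These were Cdh2, Cdh6, Cdh11, Pcdh9, Pcdh17, Pcdh19, Pcdhb17 and Pcdhb20, and since only genes held by at least 3 cells entered the tests between types, they are the only family members tested. The other 48 are described without a test.

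**Figure D1:**
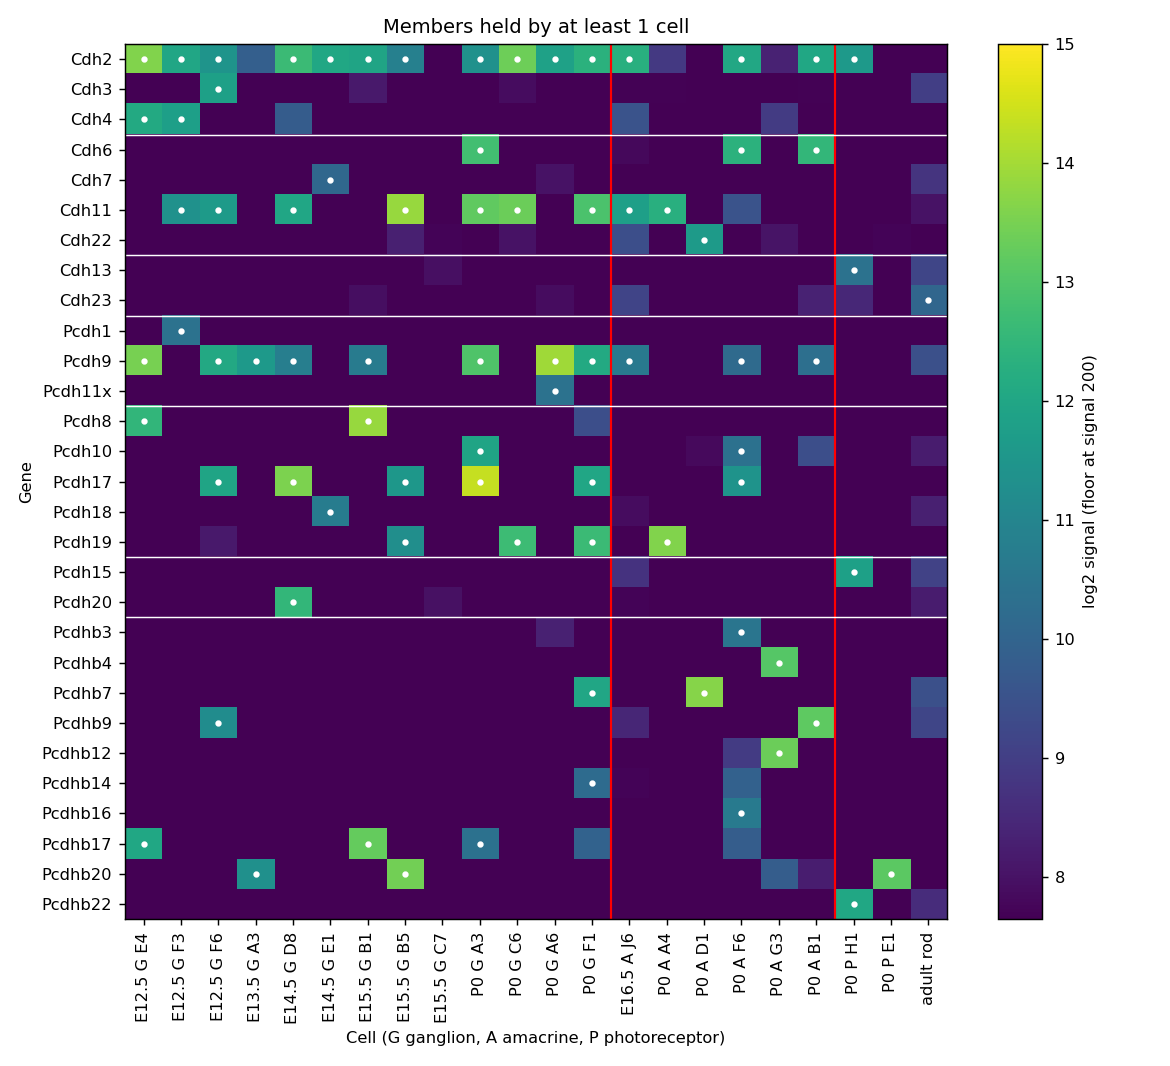
Log2 signal of the 29 cadherin and protocadherin genes held by at least 1 cell, one row per gene and one column per cell, with the darkest colour at the floor of 7.64. White dots mark a signal of 1000 or more, white lines separate structural groups, and red lines separate ganglion, amacrine and photoreceptor cells; Cdh2 fills most ganglion columns, whereas the Pcdhb rows at the bottom hold 1 to 3 dots each.

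Type I classical cadherins were the most widely held group, through Cdh2. Of 5 members, 3 were held by some cell: 11 ganglion cells, 3 amacrine cells and 1 photoreceptor held at least 1. Cdh2, the N-cadherin of neural tissue, was at 13.62, 12.00 and 11.45 (log2 signal) in the E12.5 ganglion cells, 9.86 in the E13.5 cell, 12.66 and 12.04 at E14.5, 11.93, 10.84 and 7.64 at E15.5, and 11.36, 13.39, 11.85 and 12.33 at P0. It was therefore held by 11 of 13 ganglion cells, the E13.5 cell lying just under the threshold and 1 E15.5 cell at the floor. Among amacrine cells Cdh2 was at 12.29 in the E16.5 cell and at 8.86, 7.64, 12.05, 8.36 and 12.03 in the P0 cells, so 3 cells were high and 3 low with no value between 8.86 and 12.03. Among photoreceptors it was at 11.63 in P0 cell H1 and at the floor in P0 cell E1 and the adult rod. A second Cdh2 probe set was held by 11 cells, 10 of them also high on the first, but its photoreceptor was E1 and not H1.

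Cdh4, the R-cadherin first described in retina, was held by 2 E12.5 ganglion cells, E4 at 12.12 and F3 at 11.79. Its other responsive probe set was held by E4 and by P0 photoreceptor H1, so the probe sets shared 1 cell. Cdh3, the P-cadherin, was held by the E12.5 ganglion cell F6 alone, at 11.83. Cdh1, the E-cadherin of epithelia, and Cdh15, the M-cadherin of muscle, were held by no cell.

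Type II cadherins were held by 8 of 13 ganglion cells, 5 of 6 amacrine cells and 0 of 3 photoreceptors. Of the 11 members, 4 were held at all, and of the 13 cells holding any, 1 held more than 1. Cdh11, also called OB-cadherin, was the widest. In ganglion cells it was at 7.64, 11.36 and 11.66 at E12.5, 7.64 at E13.5, 12.01 and 7.64 at E14.5, 7.64, 13.87 and 7.64 at E15.5, and 13.20, 13.34, 7.64 and 12.91 at P0. The values separated into 7 cells at 11.36 or more and 6 at the floor, and every stage with more than 1 cell held both kinds. In the amacrine cells it was at 11.80 in the E16.5 cell, 12.28 in P0 cell A4, 9.53 in P0 cell F6 and the floor in the other 3, and in photoreceptors it did not exceed 7.99. The standard deviation of Cdh11 over the 13 ganglion cells was 2.67 on the log2 scale, at percentile 96.8 of the 7184 genes tested, whose median was 1.90, whereas that of Cdh2 was 1.55, at percentile 25.4. A second Cdh11 probe set was held by 5 of the 9 cells and by no other. On it all E14.5 and E15.5 ganglion cells were at the floor, among them B5, at 13.87 on the first. The presence of both kinds at these stages thus rests on the chosen probe set.

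Cdh6, the K-cadherin, which marks direction-selective ganglion cell types in later retina, was held by 3 P0 cells: ganglion cell A3 at 12.77, amacrine cell F6 at 12.38 and amacrine cell B1 at 12.52. In every other cell it was at 7.80 or below, so the gene was nearly all or none and crossed cell types. A second Cdh6 probe set reached 1000 in the adult rod only. Cdh7 was held by the E14.5 ganglion cell E1 at 10.11, close to the threshold, and Cdh22 by P0 amacrine cell D1 at 11.65. Cdh5, the VE-cadherin of blood vessels, was held by no cell, nor were Cdh8, Cdh9, Cdh10, Cdh18, Cdh19 and Cdh20.

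Of the 5 cadherins outside these classes, 2 were held, each by 1 photoreceptor and by no ganglion or amacrine cell. Cdh23, an adhesion protein of hair cell tip links whose gene is mutated in Usher syndrome, was at 10.07 in the adult rod, and its second probe set was also held by the rod alone. Cdh13, the membrane-anchored T-cadherin, was at 10.42 in P0 photoreceptor H1, the cell that also held glial and progenitor markers, and at 9.17 in the rod. Cdh16, Cdh17 and Cdh26 were held by no cell. H1 also held Pcdh15, the protein that pairs with Cdh23 in tip links, at 11.83, on both of the responsive probe sets of this gene. No cell held Pcdh15 and Cdh23 together. The rod's dim signals were raised, as given above, and 12 of the 26 values of the whole family between 500 and 1000 came from this cell.

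Delta-1 protocadherins were represented mainly by Pcdh9, a gene of broad neural expression. Pcdh9 was held by 8 ganglion and 3 amacrine cells and by no photoreceptor. The E12.5 ganglion cells averaged 11.08 ± 3.05 (log2 signal, SD, n = 3), with F3 at the floor, F6 at 12.09 and E4 above both. Its values were 11.60 at E13.5, 10.80 and 7.64 at E14.5, 10.69, 7.64 and 7.64 at E15.5, and 12.96, 7.64, 13.95 and 12.11 at P0. Like Cdh11, it was either at the floor or at 10.69 or more in ganglion cells. The amacrine cells that held it lay lower, at 10.62 in the E16.5 cell and at 10.19 and 10.34 in P0 cells F6 and B1, below every ganglion cell holding the gene. A second Pcdh9 probe set did not show that order: it was held by the E12.5 ganglion cells E4, F3 and F6 at 11.13, 10.78 and 10.05 and by the P0 amacrine cell F6 at 11.26, the highest value. The rod was at 9.43 and both P0 photoreceptors were at the floor. Pcdh1 was held by the E12.5 ganglion cell F3 and Pcdh11x by the P0 ganglion cell A6, each alone, and Pcdh7 by no cell, though another of its probe sets reached 10.21 in P0 amacrine cell F6.

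All 5 delta-2 protocadherins were held by some cell, in 9 ganglion and 2 amacrine cells and no photoreceptor. These proteins carry motifs that recruit the WAVE actin regulatory complex. Pcdh17 was at 11.93 in the E12.5 ganglion cell F6, 13.56 in the E14.5 cell D8, 11.53 in the E15.5 cell B5, 14.35 and 12.01 in the P0 cells A3 and F1, and 11.43 in the P0 amacrine cell F6, with all other cells at the floor. Pcdh19, whose gene is mutated in a form of epilepsy in girls, was at 11.29 in the E15.5 ganglion cell B5, 12.68 and 12.66 in the P0 ganglion cells C6 and F1, and 13.61 in the P0 amacrine cell A4. Its next value was 8.15, so high and low cells were again well separated. A second Pcdh19 probe set dropped B5 and added the E14.5 ganglion cell E1, whereas a second Pcdh17 probe set was held by no cell.

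Pcdh8 was held by 2 ganglion cells, the E12.5 cell E4 and the E15.5 cell B1, on both of its probe sets. Pcdh10, also called OL-protocadherin, was held by the P0 ganglion cell A3 at 11.95 and the P0 amacrine cell F6. Pcdh18 was held by the E14.5 ganglion cell E1 only. Of the remaining unclustered protocadherins, Pcdh20 was held by the E14.5 ganglion cell D8, and Pcdh12, an endothelial protocadherin, by no cell.

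**Figure D2:**
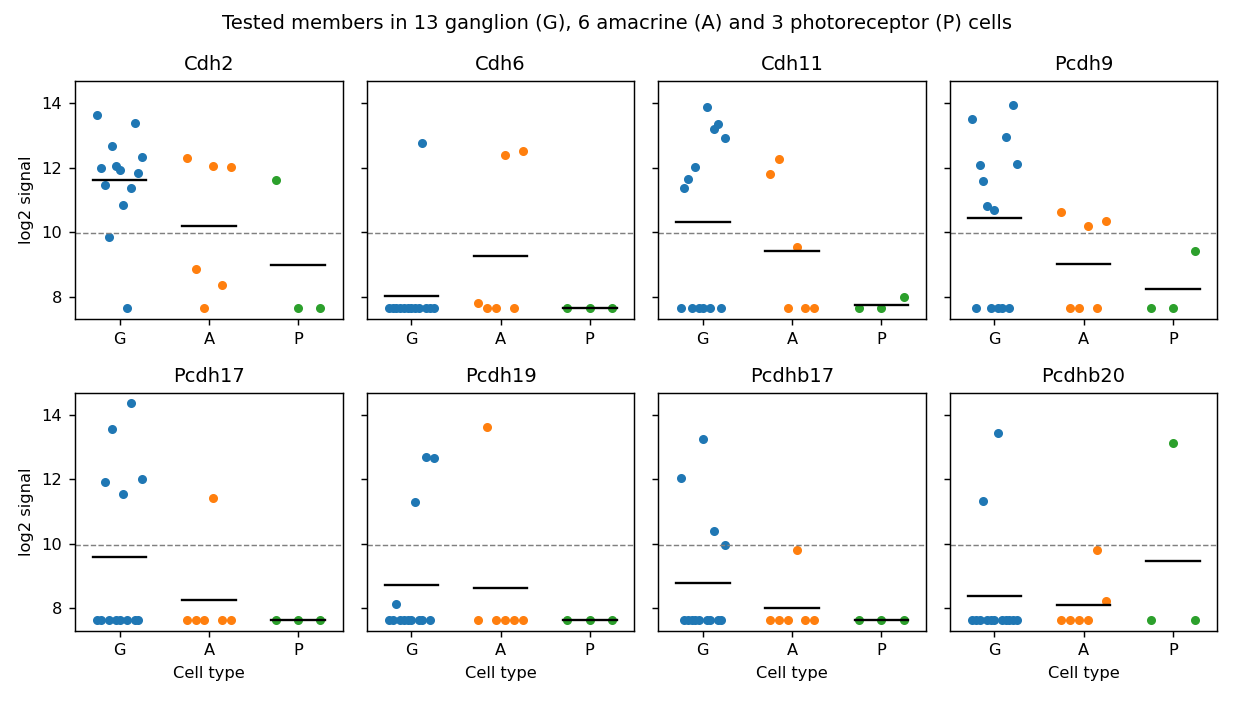
Log2 signal of the 8 tested genes in every cell, with ganglion (G), amacrine (A) and photoreceptor (P) cells along the horizontal axis, a bar at the mean over the cells of a type and a dashed line at a signal of 1000. Most points lie at the floor or above the dashed line, and in each panel the ganglion and amacrine points overlap; no photoreceptor lies above the line except for Cdh2 and Pcdhb20.

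Several of these genes were held by the same cells. Of the 6 cells with Pcdh17, 5 also held Cdh11 and all 6 held Cdh2. All 4 cells with Pcdh19 held Cdh11, among them the amacrine cell A4, which held no other member of the family. Both cells with Pcdh8 held Pcdhb17, and both cells with Pcdh10 held Cdh6 and Pcdh17. Of the 15 cells with Cdh2, 11 held a type II cadherin as well. Across the 13 members held by 2 or more cells there are 78 pairs, of which 24 were held together by at least 2 cells and 30 by none. These counts rest on few cells and carry no test. Cdh2 was held by 15 of the 22 cells and a type II cadherin by 13, which alone makes shared cells frequent. How often pairs of other genes were held by the same cells was not counted.

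The P0 ganglion cell A3 and the P0 amacrine cell F6 shared Cdh2, Cdh6, Pcdh9, Pcdh10 and Pcdh17, although they were labelled as different types. They held 3481 and 4132 genes in all. Of the tested genes held by either, a share of 0.413 was held by both, against a median of 0.305 over all pairs of cells. The promoter windows of the 3 rarer genes of that set are given because the genes appeared together in both cells. Each runs 5′ to 3′ on the gene's strand from 250 bases before the annotated start to 50 after it, from RefSeq's annotation of GRCm38.p6, and capitals mark matches on either strand to the GC box GGGCGG or the E-box CANNTG. Cdh6 lies at chr15:13173626-13173925 on the minus strand, Pcdh10 at chr3:45378148-45378447 and Pcdh17 at chr14:84443313-84443612, both on the plus strand.
Cdh6: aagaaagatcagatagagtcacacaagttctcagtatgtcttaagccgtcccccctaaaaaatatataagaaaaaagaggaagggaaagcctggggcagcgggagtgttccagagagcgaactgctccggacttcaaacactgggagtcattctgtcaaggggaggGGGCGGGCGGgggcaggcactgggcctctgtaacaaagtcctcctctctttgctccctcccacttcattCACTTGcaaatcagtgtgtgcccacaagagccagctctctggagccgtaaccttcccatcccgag
Pcdh10: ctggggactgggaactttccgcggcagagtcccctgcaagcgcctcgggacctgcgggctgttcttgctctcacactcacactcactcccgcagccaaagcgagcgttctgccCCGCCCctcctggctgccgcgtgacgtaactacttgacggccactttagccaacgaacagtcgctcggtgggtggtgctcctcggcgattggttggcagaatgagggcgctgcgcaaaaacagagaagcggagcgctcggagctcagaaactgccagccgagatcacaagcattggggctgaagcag
Pcdh17: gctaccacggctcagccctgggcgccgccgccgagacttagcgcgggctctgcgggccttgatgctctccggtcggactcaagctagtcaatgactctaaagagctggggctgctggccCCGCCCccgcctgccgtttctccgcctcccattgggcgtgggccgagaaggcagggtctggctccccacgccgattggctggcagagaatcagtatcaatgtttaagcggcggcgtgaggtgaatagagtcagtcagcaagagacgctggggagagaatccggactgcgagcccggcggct
The Cdh6 window held 2 overlapping GC box matches and 1 E-box match, and those of Pcdh10 and Pcdh17 held 1 GC box match each and 0 E-box matches. None had the TATA box letters TATAAA. Of 32851 promoter windows, 35.7% held the GC box letters, 72.3% the E-box letters and 13.6% the TATA box letters. GC content was 53.0% for Cdh6, 62.3% for Pcdh10 and 65.0% for Pcdh17, against a median of 52.7% over all windows. A match describes the letters and not binding at them.

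Clustered protocadherins with a probe set of their own were 22 Pcdhb genes and Pcdhgc4, which no cell held. Of the Pcdhb genes, 10 were held by some cell and none by more than 3. They were held by 13 cells: 7 ganglion cells, 4 amacrine cells and 2 photoreceptors. In 10 of these cells exactly 1 Pcdhb gene was held, and in the other 3 there were 2. The pairs were Pcdhb7 and Pcdhb14 in the P0 ganglion cell F1, Pcdhb3 and Pcdhb16 in the P0 amacrine cell F6, and Pcdhb4 and Pcdhb12 in the P0 amacrine cell G3. By their numbers in the cluster, 6, 12 and 7 genes lay between the paired genes, so none of the pairs were neighbours. These counts and pairs depend on the threshold of 1000. In the P0 amacrine cell F6 the held pair was at 10.5 and 10.66 (log2 signal). Just under the threshold in F6 lay Pcdhb14 at 9.92 and Pcdhb17 at 9.82. So did Pcdhb17 at 9.95 in the P0 ganglion cell F1 and Pcdhb20 at 9.8 in the P0 amacrine cell G3. With Pcdhb17 counted, F6 would hold the neighbours Pcdhb16 and Pcdhb17.

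Pcdhb17 was at 12.04 in the E12.5 ganglion cell E4, 13.25 in the E15.5 cell B1 and 10.39 in the P0 cell A3. Pcdhb20 was at 11.33 in the E13.5 ganglion cell A3, 13.42 in the E15.5 cell B5 and 13.14 in the P0 photoreceptor E1, where it was the only family member held by the chosen probe sets (Cdh2 reached 13.59 there on its second). Pcdhb7 was held by P0 ganglion cell F1 and P0 amacrine cell D1, and Pcdhb9 by the E12.5 ganglion cell F6 and the P0 amacrine cell B1. Each of these 4 genes was thus held by cells of different stages or types. Pcdhb22 was held by P0 photoreceptor H1. Pcdhb genes resemble one another in sequence, and binding of one gene's product by another gene's probes was not tested.

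For the Pcdha cluster the array has 6 probe sets that list several genes, 3 with 14 symbols and 3 with 9, so the single genes cannot be told apart. At least 1 of them was held by 10 cells. The cells were 2 of 3 ganglion cells at E12.5, 0 of 1 at E13.5, 0 of 2 at E14.5, 0 of 3 at E15.5 and 4 of 4 at P0, with 0 of 1 E16.5 amacrine cell, 3 of 5 P0 amacrine cells, 0 of 2 P0 photoreceptors and the adult rod. The probe set listing Pcdha1 to Pcdha12, Pcdhac1 and Pcdhac2 that was highest overall was at 12.84 and 12.67 in the E12.5 ganglion cells F3 and F6, at 12.78, 13.15, 14.63 and 12.21 in the P0 ganglion cells A3, C6, A6 and F1, and at 12.77 and 11.00 in the P0 amacrine cells F6 and G3. By this probe set all 4 P0 ganglion cells held Pcdha transcripts, and none of the 6 ganglion cells from E13.5 to E15.5 did. The other probe sets with 14 symbols differed at P0. One was held by 3 of the 4 ganglion cells, with A3 at 7.90, and the other by 0 of 4. The E15.5 cell C7 was also the cell with the fewest genes held, 1518. How many of all genes show such a pattern was not counted.

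**Figure D3:**
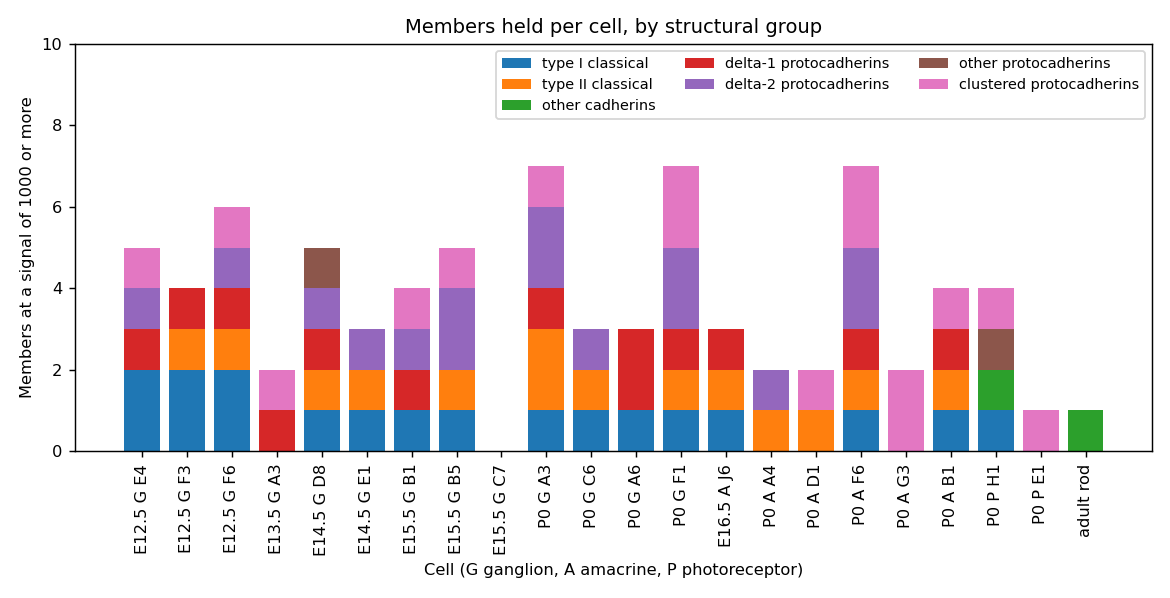
Number of cadherin and protocadherin genes at a signal of 1000 or more in each of the 22 cells, stacked by structural group. The bars reach 7 in 2 P0 ganglion cells and 1 P0 amacrine cell and are empty in 1 E15.5 ganglion cell; photoreceptor bars have no type II, delta-1 or delta-2 segment.

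Combinations of held genes differed between cells. Ganglion cells held 0 to 7 members with a median of 4 (4.15 ± 1.99, SD, n = 13), amacrine cells 2 to 7 with a median of 2.5 (3.33 ± 1.97, SD, n = 6) and photoreceptors 1, 1 and 4 (2.00 ± 1.73, SD, n = 3). Among the 21 cells that held any member there were 21 distinct combinations, so no pair of these cells had the same set. Of the 29 genes held at all, 16 were held by 1 cell, and such a gene by itself sets its cell apart. How many distinct combinations other gene sets of this size give was not counted. The E15.5 ganglion cell C7 held no member. It was also the cell with the fewest genes held, 1518. Over the 22 cells the number of members held followed the number of all genes held (Spearman rho 0.609, or 0.674 over the 20 cells without the E16.5 amacrine cell and the rod), a description in which both counts come from the same library and share its depth. Cells that hold more genes at all thus also held more cadherins, and the counts per type were not separated from this.

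Cdh2 was held by 11 of 13 ganglion cells, and the other members varied more between them. By its second probe set, 8 of the 13 held Cdh2. It was also held by 3 of 6 amacrine cells on the chosen probe set. At E12.5, cell E4 held Cdh2 with Cdh4, Pcdh9, Pcdh8 and Pcdhb17, cell F3 held it with Cdh4, Cdh11 and Pcdh1, and cell F6 with Cdh3, Cdh11, Pcdh9, Pcdh17 and Pcdhb9. The E13.5 cell held Pcdh9 and Pcdhb20. At E14.5, cell D8 held Cdh2, Cdh11, Pcdh9, Pcdh17 and Pcdh20, and cell E1 held Cdh2, Cdh7 and Pcdh18. At E15.5, cell B1 held Cdh2, Pcdh9, Pcdh8 and Pcdhb17 and cell B5 held Cdh2, Cdh11, Pcdh17, Pcdh19 and Pcdhb20. At P0, cell A3 held Cdh2, Cdh6, Cdh11, Pcdh9, Pcdh10, Pcdh17 and Pcdhb17, cell C6 held Cdh2, Cdh11 and Pcdh19, cell A6 held Cdh2, Pcdh9 and Pcdh11x, and cell F1 held Cdh2, Cdh11, Pcdh9, Pcdh17, Pcdh19, Pcdhb7 and Pcdhb14.

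No member was common to all amacrine cells. The E16.5 cell J6 held Cdh2, Cdh11 and Pcdh9. At P0, cell F6 held Cdh2, Cdh6, Pcdh9, Pcdh10, Pcdh17, Pcdhb3 and Pcdhb16, cell B1 held Cdh2, Cdh6, Pcdh9 and Pcdhb9, cell A4 held Cdh11 and Pcdh19, cell D1 held Cdh22 and Pcdhb7, and cell G3 held Pcdhb4 and Pcdhb12. The amacrine cells J6, F6 and B1 alone among amacrine cells held Megf10, Slc18a3 and Isl1. All of them held Cdh2 and Pcdh9, and the other 3 amacrine cells held neither. Chat, examined with those genes, did not follow this split. It was at 13.88 in B1 and at the floor of 7.64 in J6, F6 and the other amacrine cells. The Pcdh9 values of J6, F6 and B1, at 10.62, 10.19 and 10.34, all lay under a signal of 2000. The split by Cdh2 and Pcdh9 rests on the chosen probe sets. On the second Cdh2 probe set J6 and B1 held the gene, at 11.87 and 11.36, and F6 was at 9.81. On the second Pcdh9 probe set F6 alone of the amacrine cells held the gene, at 11.26, with J6 at 9.36 and B1 at the floor. The split of the amacrine cells was drawn after the values were seen and is a description of 6 cells.

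The overlap of 2 cells was measured as the members held by both divided by those held by either. Its median was 0.200 over the 78 pairs of ganglion cells, beside 0.315 for all genes counted by the same rule, and 0.000 over the 15 pairs of amacrine cells, beside 0.268. The E15.5 ganglion cell C7, which held no member, shares none with any cell. With it, no member was shared by 15 of 78 ganglion pairs, and without it by 3 of 66, with a median of 0.236 beside 0.330 for all genes. Of the 15 amacrine pairs 11 shared none. Over all cells 104 of 231 pairs shared none, and 83 of 210 without C7. The closest pair was the E12.5 ganglion cell E4 and the E15.5 ganglion cell B1 at 0.800, which differed only by Cdh4. The next was the P0 ganglion cell C6 with the P0 amacrine cell A4 at 0.667, both holding Cdh11 and Pcdh19. With so few members per cell, 1 gene moves these values widely.

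Ganglion and amacrine cells used many of the same cadherins. Cdh2, Cdh6, Cdh11, Pcdh9, Pcdh17 and Pcdh19 were each held by cells of both types, Pcdhb17 and Pcdhb20 by ganglion but not amacrine cells. The types were compared over type-and-stage averages, 5 ganglion samples against 2 amacrine samples, because cells taken at one stage could share an animal. Of the 8 tested members 0 passed an adjusted p of 0.05 in limma, where 0.0696% of all 7184 tested genes did. At an unadjusted p under 0.05 there were 0 members, against 3.94% of all genes, and 0 had sample means that did not overlap between types, against 8.52%. A positive difference was found for 6 of the 8 and for 47.9% of all tested genes. Of the 6, Pcdhb17 and Pcdhb20 were held by 0 amacrine cells. Since they entered the test without amacrine cells, the filter favoured a positive sign for them. The median difference was 0.52 on the log2 scale for the members and -0.06 for all tested genes.

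The differences, ganglion minus amacrine on the log2 scale with their standard errors, were 1.31 ± 1.03 for Pcdh17, 0.85 ± 1.01 for Pcdhb20, 0.79 ± 1.41 for Pcdh9 and 0.70 ± 0.74 for Pcdhb17. They were 0.35 ± 1.47 for Cdh2, 0.18 ± 0.74 for Pcdh19, -0.54 ± 1.36 for Cdh11 and -0.78 ± 0.63 for Cdh6. In limma the adjusted p was 0.9988 for each of the 8. The standard errors reach from about the size of the difference to several times it, and none of these differences passed the threshold. The sign for Cdh2 turned to -0.32 under quantile normalization, that for Cdh11 turned to 0.89 and that for Pcdh19 to -0.41 without the E16.5 amacrine cell, and the sign for Pcdh19 also turned, to -0.06, without the E15.5 ganglion cell B5. Without the E16.5 amacrine cell the difference for Cdh6 was -1.67 (unadjusted p = 0.02981, adjusted p = 0.9999 in limma, with adjusted values from 0.9713 when leaving out each cell). That for Pcdh17 was 0.72 without the E14.5 ganglion cell D8 and 1.90 at the other end, without cell E1 of the same stage.

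**Figure D4:**
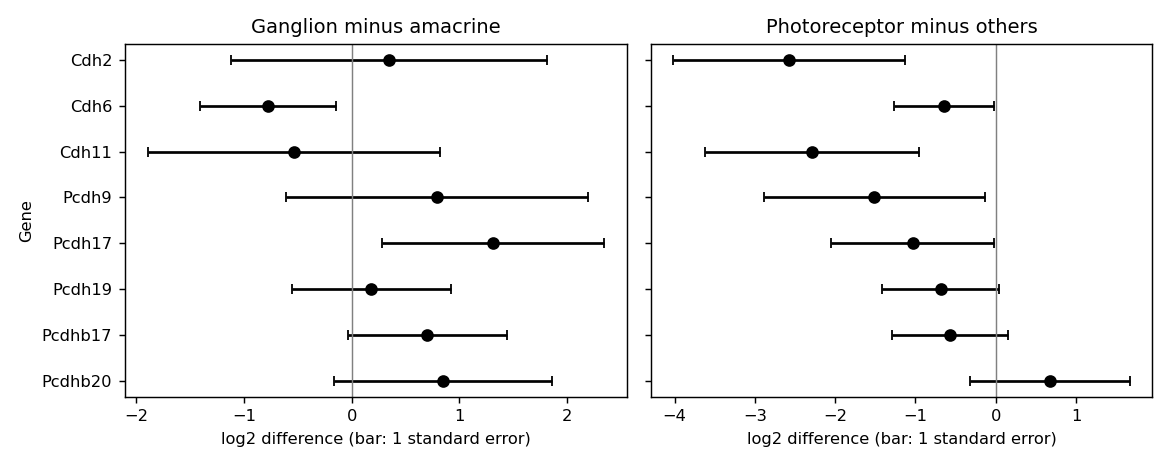
Difference in log2 signal with 1 standard error for the 8 tested genes, ganglion minus amacrine samples on the left and photoreceptor minus the mean of both other types on the right. On the left the estimates run from -0.78 to 1.31, and on the right from -2.57 to 0.68 with only Pcdhb20 above 0; none passed the adjusted threshold.

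At P0 the types can be set side by side at the same stage, 4 ganglion cells against 5 amacrine cells, which is 1 sample against 1 and carries no test. Of the 8 tested members, 4 lay at least 2 log2 units higher in ganglion cells (Pcdh9, Cdh11, Cdh2 and Pcdh17), where 10.8% of all tested genes did, and 0 lay at least 2 lower, where 4.69% did. The count of 4 rests on single cells: leaving out each cell in turn gave 2 to 5, with 2 without the amacrine cell D1, where Cdh2 was at 1.91 and Pcdh17 at 1.82. Averaging the probe sets of a gene also gave 2 (Cdh2 and Cdh11). Mean log2 signals in ganglion and amacrine cells were 12.23 ± 0.86 and 9.79 ± 2.10 (SD over cells) for Cdh2. Cdh2 was held by all 4 ganglion cells and 2 of the 5 amacrine cells. For Pcdh9 they were 11.67 ± 2.78 and 8.69 ± 1.44, for Cdh11 11.77 ± 2.76 and 8.95 ± 2.03, and for Pcdh17 10.41 ± 3.34 and 8.40 ± 1.70. These are differences of 2.44, 2.97, 2.82 and 2.01, and that of Pcdh17 was 0.70 without the ganglion cell A3. The largest, that of Pcdh9, was reversed on the second probe set of this gene. There the P0 ganglion cells were at 7.64 or 7.65. The P0 amacrine cell F6 was at 11.26 and the other P0 amacrine cells were at the floor.

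Pcdh19 and Pcdhb17 followed at 1.32 and 0.83, and leaving out each cell gave 0.48 to 2.51 for Pcdh19. On the amacrine side stood Pcdhb12 at -1.39, Pcdhb9 at -1.11, Pcdhb4 at -1.08, Cdh22 at -0.78, Cdh6 at -0.64 and Pcdhb16 at -0.60. The value for Cdh6 ran from -1.92 without the ganglion cell A3 to 0.06 and 0.10 without the amacrine cells F6 and B1. Apart from Cdh6, which 2 amacrine cells and 1 ganglion cell held, each of these was held by 1 amacrine cell and by no P0 ganglion cell. For every member the P0 ganglion and amacrine values overlapped. Without the E16.5 amacrine cell, which held Cdh2, Cdh11 and Pcdh9, the differences over all stages were 1.60, 0.89 and 1.75 for these genes.

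Photoreceptors held few of the family. By the chosen probe sets, no photoreceptor held a type II, delta-1 or delta-2 gene, though the second Cdh6 probe set reached 1000 in the rod. What they held was Cdh2, Cdh13, Pcdh15 and Pcdhb22 in P0 cell H1, Pcdhb20 in P0 cell E1 and Cdh23 in the adult rod, and the 3 cells shared no member. On its second probe set Cdh2 was held by E1 and not H1. Which photoreceptor held it thus depended on the probe set, and on neither probe set did photoreceptors share it. Set against the mean of the ganglion and amacrine samples, the differences were -2.57 ± 1.44 for Cdh2 (adjusted p = 0.4701 in limma), -2.29 ± 1.33 for Cdh11 (adjusted p = 0.4962) and -1.51 ± 1.38 for Pcdh9 (adjusted p = 0.6481). Pcdh17 was at -1.03 ± 1.01, Pcdh19 at -0.69 ± 0.73, Cdh6 at -0.65 ± 0.62 and Pcdhb17 at -0.57 ± 0.73. Pcdhb20 alone was positive, at 0.68 ± 0.99.

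In that comparison 0 of the 8 members passed in limma, against 2.12% of all tested genes, and 0 had an unadjusted p under 0.05, against 12.2%. A negative difference was found for 7 of the 8 members and for 65.9% of all tested genes, and the medians were -0.86 and -0.57. Of the 7, all but Cdh2 were held by 0 photoreceptors on the chosen probe sets. Those members entered the test only through ganglion and amacrine cells, so the filter favoured a negative sign. Cdh2 was the member whose photoreceptor samples lay below every other sample (10.1% of all tested genes had samples that did not overlap, and 7.04% lay lower). This was not so on its second probe set, where the P0 photoreceptors averaged 11.45 and the rod 8.80, against 8.52 to 11.87 in the other samples. The Cdh2 difference was -1.33 with its probe sets averaged, -1.58 without E1 or without the rod, -3.57 without H1, and -0.95 without the E16.5 amacrine cell and the rod together. The sign for Cdh6 turned to 0.20 when all its probe sets were averaged. With no filter on dim genes, Cdh13 passed in photoreceptors, at 1.45 ± 0.16 (adjusted p = 0.0239 in limma over 18194 genes). In the fits with a filter it was not tested. The difference rests on H1 and the rod, and most of the other samples sit exactly at the floor, which leaves them no measured spread.

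The proteins that work with cadherins were followed through a list of 50 genes, of which 47 were measured and 35 tested. In ganglion against amacrine cells 0 of the 35 passed in limma, against 0.0696% of all tested genes. An unadjusted p under 0.05 was found for 1, against 3.94%. There were 22 positive and 13 negative differences with a median of 0.27, against 47.9% positive and a median of -0.06 for all tested genes. Among the partners the largest were Arvcf, a p120-type catenin, at 2.49, Adam10, the protease that sheds N-cadherin, at 2.24, and Jup, plakoglobin, at 2.00. On the other side stood Clstn1, calsyntenin, at -1.70, Ctcf, which organises promoter choice in the protocadherin clusters, at -1.21 and Wasf1 at -0.91. The adjusted p was 0.9988 for each. Arvcf, which had the unadjusted p under 0.05, was held by 6 ganglion and 0 amacrine cells. Clstn2, Clstn3, Fat1 and Vcl, also with positive differences, were held by 0 amacrine cells as well. They and Arvcf entered the test without amacrine cells, so the filter favoured a positive sign for them. Cdhr1, held by photoreceptors alone, had a negative difference.

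In photoreceptors 1 of the 35 partners passed, where 2.12% of all tested genes did. Cdhr1, the photoreceptor cadherin at the base of the outer segment, was at 14.94 and 15.04 in the P0 photoreceptors and 17.70 in the adult rod, and at 9.85 or less in all 19 other cells. It was higher in photoreceptors by 8.55 ± 1.36 on the log2 scale (adjusted p = 3.018e-07 in limma). Cdhr1 was held by 3 photoreceptors, 0 ganglion cells and 0 amacrine cells. It entered the test only through photoreceptors, so the filter favoured a positive sign. The next differences missed the threshold: 4.19 for Clstn1 (adjusted p = 0.07301), 3.43 for Ctnna1, the alpha-catenin (0.2531), -4.50 for Abi2, a subunit of the WAVE complex (0.07056), -4.08 for Ctnnd2, delta-catenin (0.1251), and -3.57 for Marcks (0.09959). The Marcks value rests on the adult rod, at the floor, since the P0 photoreceptors were at 14.26 and 13.89, within the range of the other types. All 7 tested genes of protocadherin signalling had negative differences, and 0 of them passed. Their median was -2.51, beside 65.9% negative and a median of -0.57 over all tested genes. Of the 7, Abi2, Cyfip2, Fyn, Pdcd10 and Wasf1 were held by 0 photoreceptors. These entered the test only through ganglion and amacrine cells, as did Ctnnd2, so the filter favoured a negative sign. Beta-catenin, Ctnnb1, which all 22 cells held, was at 13.49 to 17.60.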

How the data were processed

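The values are probe set intensities that the authors deposited for 22 arrays, 1 per cell, computed with MAS5 per the submitters' processing notes. Its version is not given in the sources used here, nor are detection calls. Of 22 arrays, 21 had a 2% trimmed mean of 500. P0 amacrine cell B1 had 18.11 and was multiplied by 27.6. Signals under 200 were raised to 200 and log2 was taken. Of 45101 probe sets, 34958 had 1 symbol in GEO's platform annotation, 932 had several, and the rest were not used. Per gene the probe set with the highest mean of these log2 values was kept.

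Genes at 1000 or more in at least 3 of 22 cells (7184) were fitted with limma 3.58.1 in R 4.3.3 (trended eBayes, 6 residual degrees of freedom, Benjamini-Hochberg at 0.05 over all genes) on 9 type-and-stage averages: 5 ganglion, 2 amacrine and 2 photoreceptor. The prior degrees of freedom were infinite, so each gene's variance came from the trend. Nothing says that the samples are separate animals or litters, so p-values are not known to measure the spread between animals. The p-values and standard errors rest on the spread between samples over genes of similar mean signal, not on each gene's own spread. Stage and type are partly confounded. The precision is limited by the number of arrays. The fit was tested on simulated data.

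Genes named with full values were those passing a test, the 8 largest differences in each direction between ganglion and amacrine cells, the 6 largest in photoreceptors and at P0, members held by all cells of a type (0 were), and of the partner list those passing and the 3 largest per direction. The family, its structural groups, the partner list and the markers were chosen with earlier results of these data known. Alternatives tried were the floor, quantile normalization, the choice of probe set, the filter, gene-wise variances, cells as samples in their type-and-stage block, medians over cells, the threshold for holding, and leaving out each cell.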

Additional observations from a re-analysis of the deposited data

Results flagged for a closer look

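The 8 tested genes and the number of members held were checked for a cell or sample far from the rest of its group, in 25 groups of 4 or 5 values, with Dixon's ratio at its 95% value. Chance would flag about 1 group in 20 for values without ties, but ties at the floor make a lone high cell stand out by construction, so that rate does not apply directly. There were 7 such values. Cdh6 stood out at 12.77 (log2 signal) in the P0 ganglion cell A3, with the other 3 P0 ganglion cells at the floor of 7.64, and the P0 average stood out for the same gene among the ganglion samples at 8.92. Cdh11 was the one case of a low value, at 7.64 in the P0 ganglion cell A6, where the nearest of the others was 12.91. Among P0 amacrine cells, F6 stood out for Pcdh17 at 11.43 and for Pcdhb17 at 9.82, A4 for Pcdh19 at 13.61, and G3 for Pcdhb20 at 9.80. The Pcdhb17 and Pcdhb20 values lie under the threshold for holding.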

How the results depend on the processing

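Of 790 values recomputed under an alternative, 14 differences changed sign (11 over all stages and 3 at P0), 2 counts that answer a comparison moved by more than 1.5 times or beyond their spread, and 2 counts of cells for single genes moved. In ganglion minus amacrine cells, Cdh2 changed from 0.35 to -0.32 under quantile normalization and to -0.03 as the mean over its probe sets. Cdh11 changed from -0.54 to 0.88 with cells as samples and to 0.18 with medians over cells. Leaving out a cell at a time gave -0.97 to 0.89 for Cdh11, positive without the E13.5 ganglion cell (0.01) or the E16.5 amacrine cell (0.89), and -0.41 to 0.78 for Pcdh19, negative without the E15.5 ganglion cell B5 (-0.06) or the E16.5 amacrine cell (-0.41). Leaving out the E16.5 amacrine cell and the adult rod together, chosen after seeing the data, gave 0.89 for Cdh11 and -0.41 for Pcdh19. In photoreceptors Cdh6 changed from -0.65 to 0.20 as the mean over probe sets. At P0, where values carry no test, Cdh6 changed from -0.64 to 0.06 and 0.10 without the amacrine cells F6 and B1, and Cdh22 from -0.78 to 0.01 with medians over cells. The number of members passing was 0 in both contrasts under all alternatives except 1 in photoreceptors with no filter, Cdh13, and 0 to 0 when leaving out a cell. The median of members held per photoreceptor was 5 at a threshold of 500, against 1. Pcdhb17 was held by 5 cells at 500 and Pcdh9 by 6 at 2000. The cause of these changes was not tested. No paired analysis was possible because the labels give no replicate number shared between groups. Signals near the floor limit all differences: with 2 amacrine and 2 photoreceptor samples, standard errors of 0.62 to 1.47 log2 units leave only large differences detectable.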
